A study of Drosophila melanogaster with 8 samples.

Results

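Stretches of the genome that carried a single peak of one SIN3 isoform and several peaks of the other are described here as split domains. A filtered peak was taken as undivided when it shared at least 1 bp with 2 or more filtered peaks of the other isoform, and the latter peaks are its partners. Of the 10713 filtered peaks in both lists, 922 were members of a split domain. They comprised 498 of 4903 SIN3 187HA peaks together with 424 of 5810 SIN3 220HA peaks. There were 121 undivided SIN3 187HA peaks over 247 SIN3 220HA partners, which is 2.47% of the SIN3 187HA list. In the opposite direction, 193 undivided SIN3 220HA peaks, 3.32% of the SIN3 220HA list, lay over 393 SIN3 187HA partners. Members were chosen by the measured start and end of the peaks in both lists, so these counts and shares follow from the rule itself, and every value below is a description without a test.

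SIN3 holds together a histone deacetylase complex that contains RPD3 and is mostly known as a transcriptional corepressor. Alternative splicing gives Drosophila SIN3 isoforms that share most of the protein and differ at the C-terminal end. S2 cells mostly make SIN3 220, so SIN3 187 is the less usual form in S2 cells without a construct. A peak caller joins neighbouring enriched bases into a peak, so a domain occupied over its whole length can be reported as a single wide peak or as several narrower ones separated by gaps in which enrichment falls below the calling threshold.

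The isoforms were mapped in S2 cells, a cell line of embryonic Drosophila origin, by sequencing of immunoprecipitated chromatin (ChIP-seq). Each line was stably transfected with HA-tagged SIN3 187 or SIN3 220 under a metallothionein promoter and retained its endogenous Sin3 gene. The SIN3 187HA line was induced with copper sulfate, whereas the SIN3 220HA line was not induced because the promoter was leaky. According to the paper, the endogenous isoform usual in these cells was almost completely lost in the induced line. Tagged isoform, copper and the level of the endogenous isoform therefore cannot be told apart. The 8 samples were 2 immunoprecipitates and 2 inputs of each line, and an immunoprecipitate from untagged cells is not among them. The 2 replicates had been joined before peak calling, which left a single list per isoform and no spread between replicates. Each list averages over a population of cells, in which binding in fewer cells and weaker binding per cell cannot be told apart. Positions are in the dm3 build, intervals of shares are 95% exact binomial intervals that cover counting error only, and genes were not analysed here.

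Before filtering, the lists held 9011 SIN3 187HA and 8862 SIN3 220HA peaks. Fold enrichment is the read pileup at the summit of a peak over the local input background, and all filtered peaks had at least 3-fold enrichment. The depth of the libraries is unknown, and the background recovered at the summits had a median of 19.7 reads in SIN3 187HA peaks (lowest 12.1) and 29.4 reads in SIN3 220HA peaks (lowest 15.2). Fold enrichment was therefore compared within a list, and between lists only as a percentile, the share of the list with the same or a lower value. With the SIN3 220HA list reduced to its 4903 peaks of lowest p-value, there were 77 undivided SIN3 187HA and 191 undivided SIN3 220HA peaks, and with 4-fold enrichment required in both lists there were 70 and 145. The part of background in the number of split domains was not tested.

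Most split domains were simple in form. Of the 121 undivided SIN3 187HA peaks, 116 had 2 partners, 4 had 3 partners and 1 had 4 partners. Of the 193 undivided SIN3 220HA peaks, 185 had 2 partners, 8 had 3 partners and 0 had 4 partners. Joining overlapping members gave 297 separate stretches, of which 105 held an undivided SIN3 187HA peak only and 177 an undivided SIN3 220HA peak only. In the other 15 stretches the peaks of the 2 isoforms were staggered, so that 16 peaks of each list were undivided and were also partners. The longest series held 5 peaks. As a reference within the same lists, 3869 simple pairs were used, in which a peak of each isoform met a single peak of the other.

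**Figure D1:**
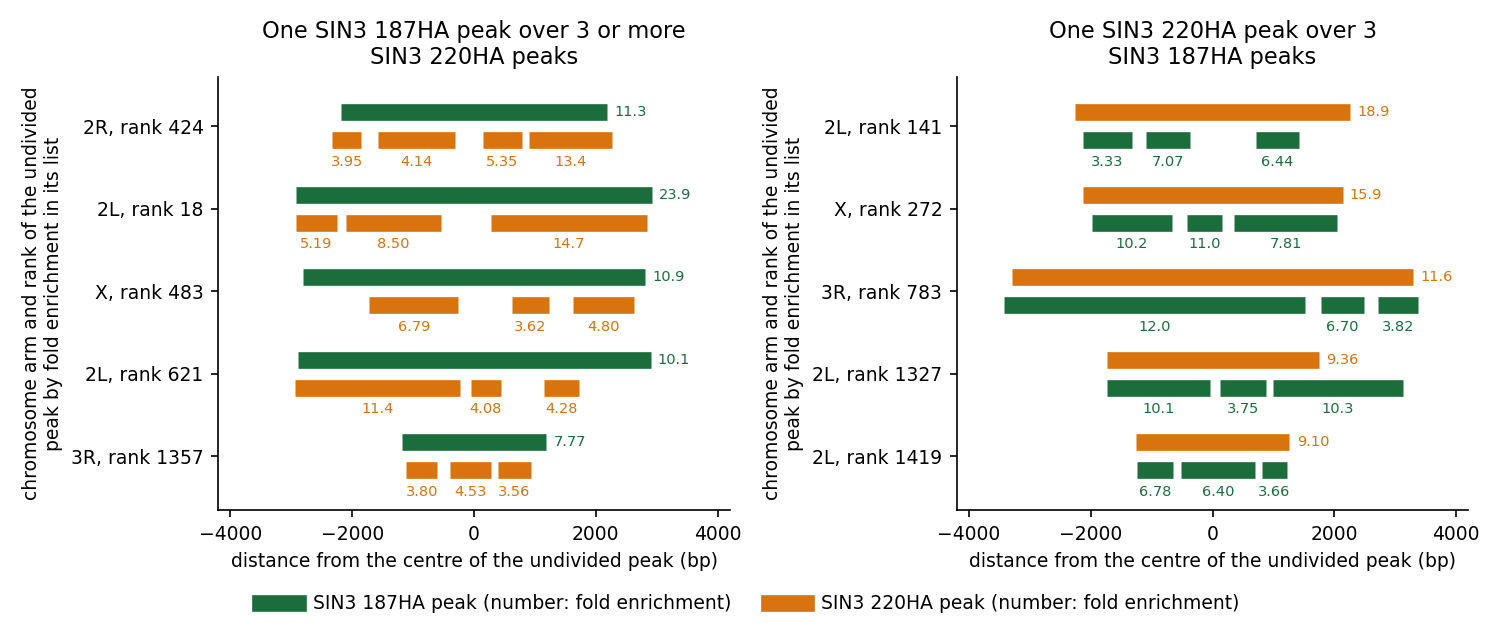
Maps of the 5 domains with the most partners in each direction, drawn as distance in bp from the centre of the undivided peak. Green bars are SIN3 187HA peaks and orange bars SIN3 220HA peaks, numbers are fold enrichment in the list of each peak, and the upper bar of each pair is the undivided peak. At the top left, a SIN3 187HA peak of 11.3-fold enrichment lies over 4 SIN3 220HA peaks of 3.95 to 13.4-fold.

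The undivided SIN3 187HA peak with the most partners lay on 2R at 6362064 to 6366433, and its 4370 bp had 11.3-fold enrichment. Its 4 SIN3 220HA partners had 3.95, 4.14, 5.35 and 13.4-fold enrichment from left to right, with gaps of 276, 445 and 116 bp between them. The SIN3 187HA summit lay 60 bp from that of the strongest partner, and both peaks stood at the 91.4 percentile of their list. A weak left flank was thus resolved into 3 separate SIN3 220HA peaks and belonged to a single SIN3 187HA peak. On 2L at 12002081 to 12007922, the widest undivided SIN3 187HA peak (5842 bp) was also the strongest, with 23.9-fold enrichment and rank 18 of its list. Its 3 SIN3 220HA partners had 5.19, 8.50 and 14.7-fold enrichment, with gaps of 138 and 812 bp, and covered 82.2% of it.

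The other 3 domains with 3 SIN3 220HA partners differed in how evenly the partners were enriched. On X at 6752058 to 6757671, a SIN3 187HA peak of 10.9-fold enrichment covered SIN3 220HA peaks of 6.79, 3.62 and 4.80-fold, and the SIN3 187HA summit coincided with that of the first. On 2L at 8082407 to 8088204, a SIN3 187HA peak of 10.1-fold enrichment lay over a strong SIN3 220HA peak of 11.4-fold and 2 weak ones of 4.08 and 4.28-fold. On 3R at 14272751 to 14275118, the 3 SIN3 220HA partners were alike, at 3.80, 4.53 and 3.56-fold, under a SIN3 187HA peak of 7.77-fold. The strongest of these 3 partners stood at the 25.1 percentile of the SIN3 220HA list and the undivided peak at the 72.3 percentile of the SIN3 187HA list.

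Among undivided SIN3 220HA peaks, the strongest with 3 partners lay on 2L at 8381256 to 8385769 and had 18.9-fold enrichment. Its SIN3 187HA partners had 3.33, 7.07 and 6.44-fold enrichment with gaps of 232 and 1077 bp, and only 49.8% of the SIN3 220HA peak was covered. The SIN3 220HA summit lay 1 bp from that of the middle partner. On X at 3669370 to 3673639, a SIN3 220HA peak of 15.9-fold enrichment contained 3 SIN3 187HA peaks of 10.2, 11.01 and 7.81-fold. All 3 of these partners were in the upper part of the SIN3 187HA list, at the 87.9, 90.5 and 72.7 percentiles, so in this domain the gaps of 253 and 191 bp separated strong peaks.

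The remaining 3 of these domains each held a weak partner. On 3R at 7583773 to 7590352, a SIN3 220HA peak of 6580 bp and 11.6-fold enrichment lay over a SIN3 187HA peak of 4940 bp and 12.0-fold, followed by smaller peaks of 6.70 and 3.82-fold. On 2L at 19157675 to 19161158, a weak SIN3 187HA peak of 3.75-fold lay between peaks of 10.1 and 10.3-fold, under a SIN3 220HA peak of 9.36-fold. On 2L at 9493746 to 9496270, the SIN3 187HA partners had 6.78, 6.40 and 3.66-fold enrichment under a SIN3 220HA peak of 9.10-fold. In these 3 domains the weakest partner stood at the 7.50, 6.05 and 4.70 percentiles of the SIN3 187HA list.

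The partners of a split domain were usually separated by a narrow gap. The 127 gaps between neighbouring SIN3 220HA partners had a median of 171 bp (quartiles 133.5 and 274 bp, range 102 to 1953 bp). The 201 gaps between SIN3 187HA partners had a median of 178 bp (quartiles 128 and 292 bp, range 102 to 1950 bp). Gaps of at most 200 bp made up 78 of the 127 (61.4%) and 116 of the 201 (57.7%), and 126 and 196 of them were no wider than 1000 bp. In the whole filtered lists, 203 of 4892 gaps between neighbouring SIN3 187HA peaks (4.15%) and 256 of 5799 gaps between SIN3 220HA peaks (4.41%) were of at most 200 bp. Partner gaps must lie under a single peak of the other isoform, and list gaps, with medians of 6292 and 4905 bp, need not. The difference from the lists is thus tied to the rule. The narrowest gap in any of the lists, filtered or unfiltered, was 102 bp, so the gap distributions of the partners began at the lower limit of the lists.

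**Figure D2:**
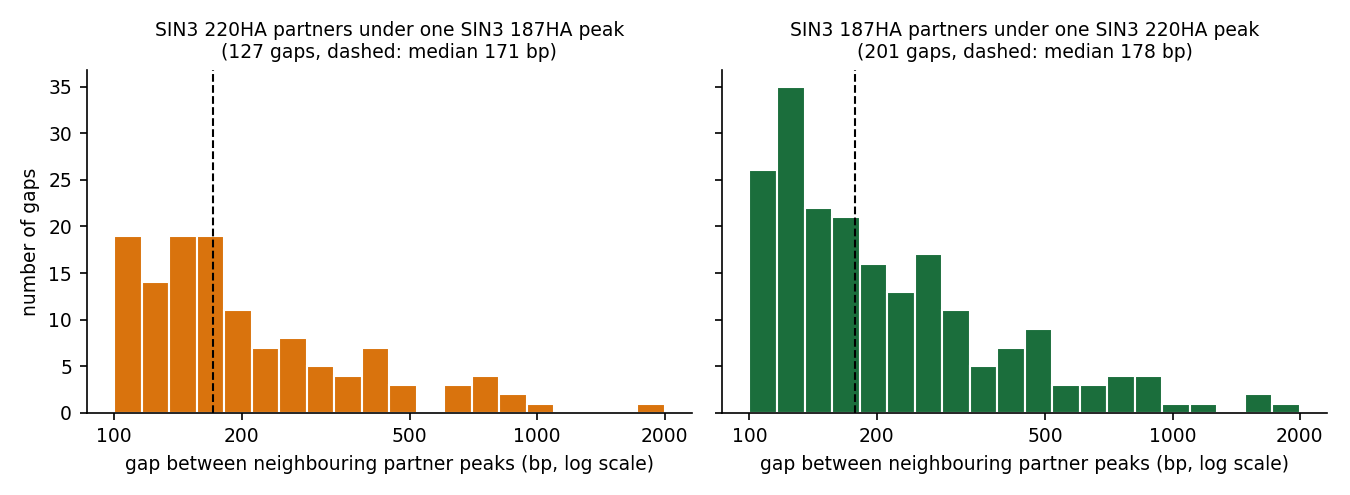
Number of gaps between neighbouring partner peaks by gap width in bp on a log scale, for SIN3 220HA partners on the left and SIN3 187HA partners on the right. Dashed lines mark the medians of 171 and 178 bp, and in both panels the highest bars lie below 200 bp.

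The narrowest gaps were found over a wide range of enrichment. The SIN3 187HA peak on 2R at 19826720 to 19828560 (7.85-fold) lay over SIN3 220HA peaks of 7.85 and 8.37-fold with a gap of 102 bp, and the first of these had its summit at the same base as the undivided peak. A gap of 103 bp separated SIN3 220HA peaks of 20.9 and 6.57-fold on 2L at 16285538 to 16288534, under a SIN3 187HA peak of 18.7-fold (rank 52). A gap of 103 bp was also present on 3R at 20395721 to 20399498, between SIN3 220HA peaks of 9.28 and 15.4-fold under a SIN3 187HA peak of 13.4-fold. These are the more enriched of 5 SIN3 187HA domains with a gap of 103 bp, since ties were broken by the higher fold enrichment, and weak domains had gaps as narrow. On X at 16314900 to 16317301, chosen after its values were seen, a SIN3 187HA peak of 3.24-fold lay over SIN3 220HA peaks of 3.004 and 3.56-fold with a gap of 104 bp. Among undivided SIN3 220HA peaks, gaps of 102 bp were found on X at 8601761 to 8604120, with partners of 3.98 and 7.16-fold, and on X at 548210 to 550983, with partners of 6.81 and 6.05-fold. The gap on 3L at 15818385 to 15821095 was 103 bp, with partners of 6.64 and 5.69-fold.

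At the other extreme, a few undivided peaks bridged far wider gaps. The widest gap, 1953 bp, lay on 3R at 22084020 to 22087633 between SIN3 220HA peaks of 542 and 705 bp, which covered 34.5% of a SIN3 187HA peak of 3614 bp and 8.33-fold enrichment. Gaps of 978 bp on X at 5812520 to 5814957 and 917 bp on 2R at 5326379 to 5329859 followed. In the X domain the SIN3 187HA summit lay in the weaker SIN3 220HA partner (5.92-fold), 57 bp from its summit, and the stronger partner (17.6-fold) lay at the opposite end. The widest gaps under SIN3 220HA peaks were 1950 bp on 2R at 12670930 to 12675024, 1517 bp on X at 6159151 to 6162669 and 1489 bp on 2R at 19944979 to 19948327. In these 3 domains the SIN3 187HA partners were of similar enrichment, at 4.44 and 4.83-fold, 6.20 and 6.35-fold, and 4.62 and 3.91-fold.

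Viewed from all gaps of a list, narrow gaps were often spanned by a single peak of the other isoform and wide ones seldom were. Of the 203 gaps of at most 200 bp in the SIN3 187HA list, 116 (57.1%, interval 50.03 to 64.0%) lay under a single SIN3 220HA peak, and 56 were flanked by peaks that met different SIN3 220HA peaks. Of the 256 such gaps in the SIN3 220HA list, 78 (30.5%, 24.9 to 36.5%) lay under a single SIN3 187HA peak, and 77 were flanked by peaks that met different SIN3 187HA peaks. The spanned gaps are those between partners in the split domains, and a gap can be spanned only by a peak wider than itself. A fall of the share spanned with gap width is thus tied to the rule and to peak width. The share was 25.5% and 10.5% for gaps over 200 and up to 500 bp, 6.72% and 2.81% for gaps up to 1000 bp, and 1.08% and 0.149% for gaps up to 2000 bp. In each class the share was higher for gaps of the SIN3 187HA list, which has the lower background and fewer peaks. Of gaps up to 200 bp, 23 SIN3 187HA and 69 SIN3 220HA gaps had a single flanking peak that met the other isoform. For a further 8 and 32, neither flanking peak did. Such gaps cannot be spanned. The part of these gaps, of background and of peak number in the shares was not tested.

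**Figure D3:**
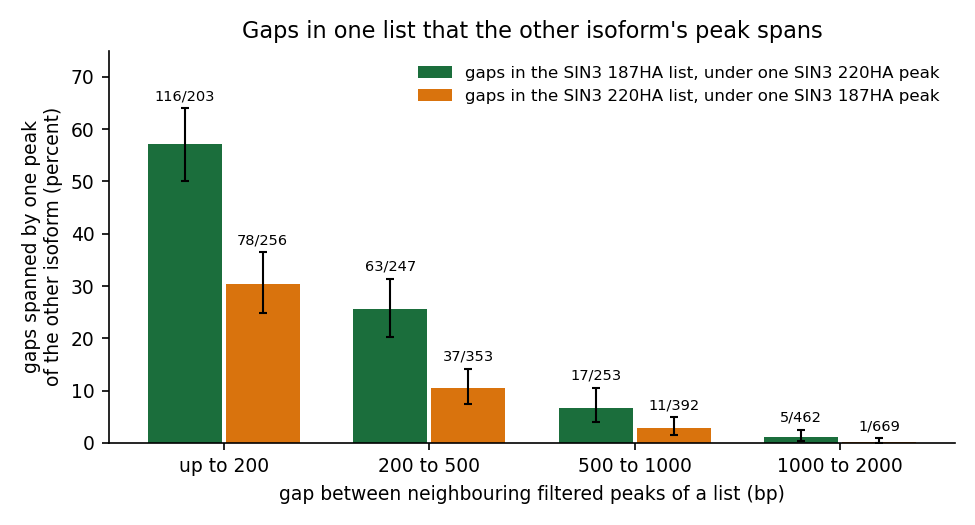
Percentage of gaps between neighbouring filtered peaks of a list that lay under a single peak of the other isoform, by gap width in bp. Bars are shares with 95% exact binomial intervals and fractions give counts, and the share falls from 57.1% to 1.08% for SIN3 187HA gaps and from 30.5% to 0.149% for SIN3 220HA gaps. Only a peak wider than a gap can span it, so the fall is tied to peak width.

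Few domains had a peak removed by the filter that lay wholly inside a gap. An unfiltered peak of the partner isoform that was absent from the filtered list lay in a gap of 6 of the 121 SIN3 187HA domains (4.96%, 1.84 to 10.5%) and of 12 of the 193 SIN3 220HA domains (6.22%, 3.25 to 10.6%). Such a peak overlapped any base of the undivided peak in 10 and 28 domains. Peaks of an unfiltered list lay at least 102 bp apart, so a gap of at most 200 bp had no room for another peak. Such gaps were 78 of the 127 and 116 of the 201, and the low shares follow in part from gap width.

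Undivided peaks were wide. The width of undivided SIN3 187HA peaks ranged from 696 to 5842 bp with a median of 1971 bp (quartiles 1431 and 2822 bp), against 818 bp in the whole list and 829 bp in simple pairs. That of undivided SIN3 220HA peaks ranged from 607 to 7933 bp with a median of 2360 bp (quartiles 1801 and 2931 bp), against 844 bp in the list and 942 bp in simple pairs. Peaks over 2000 bp made up 59 of the 121 (48.8%, 39.6 to 58.0%), against 7.77% of the SIN3 187HA list, and 124 of the 193 (64.2%, 57.0 to 71.0%), against 8.98% of the SIN3 220HA list. A wide peak has more room for several partners, and width is thus tied to the rule.

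By width class, 0 of 923 SIN3 187HA peaks and 0 of 1010 SIN3 220HA peaks of up to 500 bp were undivided, for which the upper limits of the intervals are 0.399% and 0.365%. Between 1000 and 1500 bp the shares were 2.94% of 953 SIN3 187HA peaks and 1.46% of 1236 SIN3 220HA peaks. Above 1500 bp the SIN3 220HA peaks had the higher share in each class. It was 9.07% against 6.56% up to 2000 bp, 19.7% against 11.9% up to 3000 bp, and 37.2% against 26.3% above 3000 bp. The intervals of the 2 lists overlapped in each of these 3 classes. The excess of SIN3 220HA over SIN3 187HA undivided peaks, 193 against 121, therefore lay among wide peaks. Up to 1500 bp the order was opposite, with 6 and 28 undivided SIN3 187HA peaks against 4 and 18 undivided SIN3 220HA peaks in the classes ending at 1000 and 1500 bp.

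**Figure D4:**
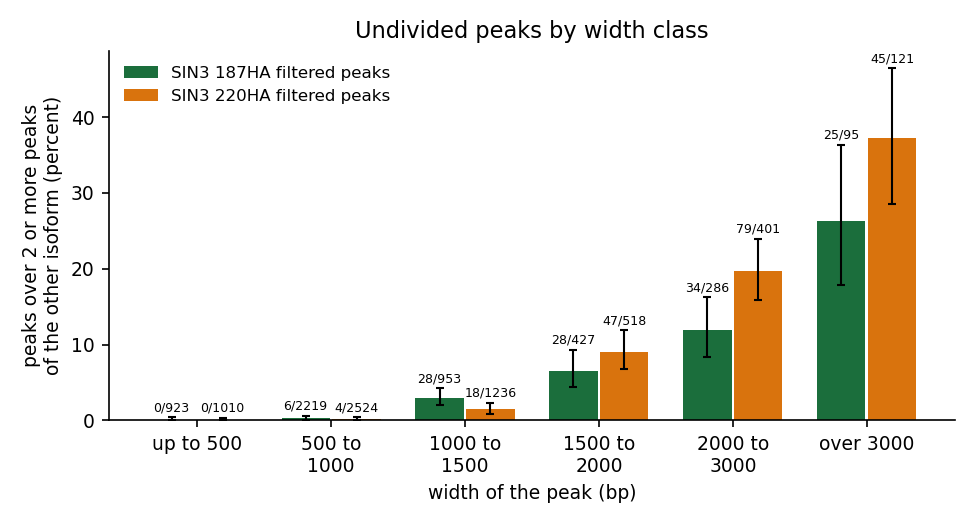
Percentage of filtered peaks that were undivided over 2 or more peaks of the other isoform, by width of the peak in bp, for SIN3 187HA (green) and SIN3 220HA (orange). Bars are shares with 95% exact binomial intervals and fractions give counts, and the share rises from 0 in peaks of up to 500 bp to 26.3% and 37.2% above 3000 bp.

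Undivided peaks also stood in the upper part of their list by enrichment. The median fold enrichment was 7.33 for undivided SIN3 187HA peaks (range 3.24 to 23.9), against 5.997 in the list, and 9.36 for undivided SIN3 220HA peaks (range 3.14 to 41.1), against 6.22 in the list. Undivided SIN3 187HA peaks had a median percentile of 68.0, against 54.5 in simple pairs, and undivided SIN3 220HA peaks had one of 77.2, against 61.7. Above the median of their list were 87 of 121 (71.9%, 63.0 to 79.7%) and 164 of 193 (85.0%, 79.1 to 89.7%). The rule favours wide peaks, and undivided peaks were not compared with other peaks of like width. The part of width in these values, and in those by decile and in reads below, was not tested.

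By deciles of the list the directions differed in form. The decile of highest enrichment held 51 undivided SIN3 220HA peaks (8.78% of its 581 peaks) and that of lowest enrichment held 3 (0.516%), and from decile 4 to decile 10 the number rose at each step. For SIN3 187HA the highest decile held 21 undivided peaks (4.28% of 491) and the lowest held 10 (2.04% of 490), with 3 in each of the next 2 deciles. The undivided peaks thus reached the weakest part of the SIN3 187HA list, where 13 of the 121 were among the bottom 20% (10.7%), whereas 5 of the 193 SIN3 220HA peaks were (2.59%).

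In reads, the median pileup at the summit was 154 for undivided SIN3 187HA peaks and 125 in the list, and 310 for undivided SIN3 220HA peaks and 189 in the list. The median pileup of the SIN3 220HA partners was 171.5 reads and that of the SIN3 187HA partners 126 reads. The input background was close to that of the lists. Divided by the list median, it had a median of 1.09 for undivided SIN3 187HA peaks and 1.11 for undivided SIN3 220HA peaks, and of 1.08 and 1.04 for the partners in these domains.

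The 5 strongest undivided SIN3 220HA peaks were among the 40 strongest peaks of the list, and each had partners of unequal enrichment. On 3R at 20390144 to 20393621, a SIN3 220HA peak of 41.1-fold enrichment (rank 7) lay over a SIN3 187HA peak of 28.3-fold (rank 10), with its summit at the same base, and over a flanking peak of 4.05-fold. On 3R at 12055767 to 12057858 (33.2-fold, rank 14) the SIN3 187HA partners had 4.34 and 20.6-fold enrichment. On 2L at 9698170 to 9701008 (31.8-fold, rank 17) they had 22.9 and 4.68-fold enrichment. In these 3 domains the strong SIN3 187HA partner was itself among the 31 strongest of its list. In the other two the partners were lower, at 8.17 and 4.73-fold on 2R at 5032319 to 5034341 (28.3-fold, rank 26) and at 6.20 and 9.74-fold on X at 13510011 to 13511278 (24.6-fold, rank 40).

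The strongest undivided SIN3 187HA peak, on 2L, has been given above, and the next also lay over strong partners. On X at 12643299 to 12648739, a SIN3 187HA peak of 19.997-fold enrichment (rank 34) covered SIN3 220HA peaks of 10.98 and 8.68-fold with a gap of 155 bp. The peak of rank 52 is that on 2L at 16285538 to 16288534, with a gap of 103 bp. The undivided SIN3 187HA peak of rank 74 lay on the same arm, at 16270835 to 16272257 (17.4-fold), and met SIN3 220HA peaks of 9.74 and 11.2-fold. The fifth, on 2L at 20821510 to 20824859 (16.9-fold, rank 78), contained SIN3 220HA peaks of 7.72 and 9.93-fold. Of these 5 domains, 4 lay on 2L, which held 17.4% of all undivided SIN3 187HA peaks and 18.2% of the list. With so few domains, nothing about the arm is read from this.

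Partners within a domain differed in enrichment to varying degrees. The weakest cannot exceed the strongest, and the ratio between them was not compared with that of other neighbouring peaks. The ratio of the weakest to the strongest SIN3 220HA partner had a median of 0.700 (range 0.272 to 0.991), and that of SIN3 187HA partners had a median of 0.715 (range 0.143 to 0.999). It was at most 0.5 in 20 of the 121 domains (16.5%) and in 42 of the 193 (21.8%). The strongest partner was also the widest in 90 of 121 (74.4%) and 132 of 193 (68.4%). The weakest partner belonged to the bottom 20% of its list in 59 of 121 domains (48.8%, 39.6 to 58.0%) and 76 of 193 (39.4%, 32.4 to 46.7%). The strongest did so in 8 and 11. The weakest of several peaks falls low in a list more often than a single peak by construction. Nothing particular to split domains is read from these ratios and shares.

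Partners covered most of the undivided peak, with a median of 86.8% under SIN3 187HA peaks (range 34.5 to 96.7%) and 82.8% under SIN3 220HA peaks (range 36.6 to 98.0%). All partners lay wholly inside the undivided peak in 25 of 121 SIN3 187HA domains (20.7%, 13.8 to 29.0%) and 91 of 193 SIN3 220HA domains (47.2%, 39.9 to 54.4%). No partner did so in 46 domains (29.3 to 47.3%) and 28 domains (9.86 to 20.3%). Nesting depends on the same starts and ends that chose the members, and the difference between the directions was not tested. All partner summits lay inside the undivided peak in 105 and 177 domains. In domains with 2 partners, the partner summits were a median of 1184 bp apart for undivided SIN3 187HA peaks and 1237 bp for undivided SIN3 220HA peaks. These distances include partner summits outside the undivided peak.

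The summit of an undivided peak was close to the summit of some partner about as often as in other overlapping peaks. It lay inside a partner in 121 of 121 and 193 of 193 domains, and inside a peak of the other isoform for 99.5% of all overlapping peaks in each list. It was within 50 bp of a partner summit in 85 of 121 SIN3 187HA domains (70.2%, 61.3 to 78.2%), against 67.5% of all overlapping SIN3 187HA peaks. For SIN3 220HA the values were 137 of 193 (71.0%, 64.0 to 77.3%) and 68.6%. In simple pairs it was 70.5%. Undivided SIN3 187HA summits were a median of 23 bp from the nearest partner summit and undivided SIN3 220HA summits 18 bp, against 19 bp in simple pairs. These distances are to the nearest of several partner summits, which was that of the strongest partner in 56 of the 85 SIN3 187HA domains (65.9%) and 99 of the 137 SIN3 220HA domains (72.3%).

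The summit did not always lie in the strongest partner. It did so in 83 of 121 SIN3 187HA domains (68.6%, 59.5 to 76.7%) and 141 of 193 SIN3 220HA domains (73.1%, 66.2 to 79.2%). In the other 38 and 52 domains it lay in a weaker partner, and in 29 of the 38 and 38 of the 52 it was still within 50 bp of a partner summit. In these domains the summit of the undivided peak lay in another peak than the highest fold enrichment of the other isoform. Their partners were more even, with a median weakest-to-strongest ratio of 0.843 for SIN3 220HA and 0.861 for SIN3 187HA partners. Where the summit lay in the strongest partner, these ratios were 0.656 and 0.667. Both the grouping and the ratio use the fold enrichment of the partners, so the difference in evenness is tied to the grouping. The part of partner width in the shares of summits in the strongest partner was not tested.

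The undivided peak mostly stood higher in its list than its strongest partner did in the other. This was so in 75 of 121 SIN3 187HA domains (62.0%, 52.7 to 70.7%), with a median difference of 7.10 percentile points, and in 125 of 193 SIN3 220HA domains (64.8%, 57.6 to 71.5%), with a median difference of 5.50 points. In simple pairs the SIN3 187HA peak stood higher in 39.1% and the SIN3 220HA peak in 60.9%, with a median difference of 4.77 points in favour of SIN3 220HA. For SIN3 220HA the values in split domains were thus close to those in simple pairs, and for SIN3 187HA the share was higher than in simple pairs. Undivided SIN3 187HA peaks themselves had a median percentile of 68.0, against 54.5 for SIN3 187HA peaks in simple pairs. The part of this in the higher share was not tested. Differences of over 25 points in favour of the undivided peak were found in 28 SIN3 187HA and 38 SIN3 220HA domains, and in favour of the strongest partner in 10 and 7.

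**Figure D5:**
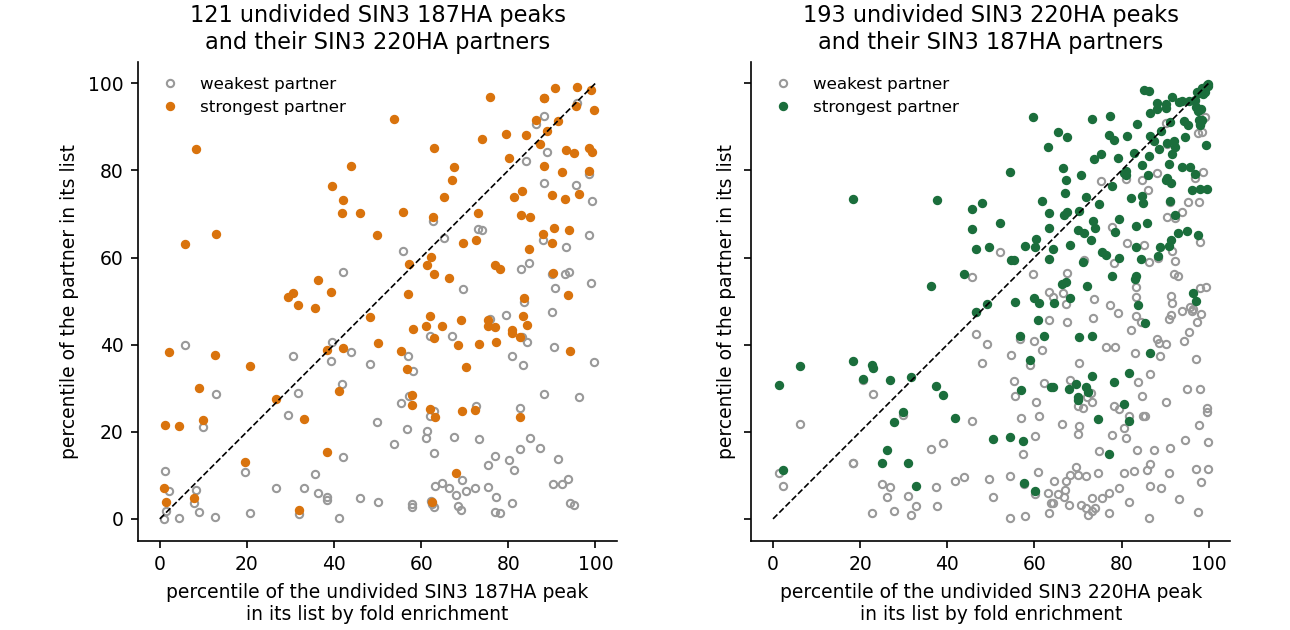
Percentile of fold enrichment of each undivided peak in its list (x axis) and of its partners in the other list (y axis), for 121 SIN3 187HA domains on the left and 193 SIN3 220HA domains on the right. Filled points are the strongest and open points the weakest partner, the dashed line marks equal percentiles, and 75 and 125 filled points lie below it.

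The domains at the ends of this range, chosen after their values were seen, had the largest differences in rank between the lists. On 3R at 17415284 to 17417359, a SIN3 187HA peak of 9.07-fold enrichment (82.6 percentile) lay over SIN3 220HA peaks of 4.44 and 4.07-fold, the stronger at the 23.5 percentile. On 2R at 6417919 to 6419335, a SIN3 187HA peak of 6.85-fold (62.4 percentile) lay over SIN3 220HA peaks of 3.34 and 3.31-fold, near the threshold. Conversely, on 2L at 20797609 to 20798584 a SIN3 187HA peak of 3.87-fold enrichment (8.38 percentile) lay over SIN3 220HA peaks of 3.52 and 11.1-fold, with its summit 4 bp from that of the weaker. Likewise on 2L at 12543897 to 12544840, the summit of a SIN3 187HA peak of 3.74-fold lay in the weaker partner, and the stronger, of 2014 bp and 7.48-fold, was met by 54 bp only.

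Among undivided SIN3 220HA peaks, that on 2R at 18528527 to 18529242 had 9.36-fold enrichment (77.2 percentile) and was only 716 bp wide. Its SIN3 187HA partners were 219 and 185 bp wide and had 4.23 and 3.3003-fold enrichment. On 3L at 3908226 to 3909728, a SIN3 220HA peak of 10.4-fold (81.8 percentile) lay over SIN3 187HA peaks of 3.57 and 4.60-fold. In these domains an undivided peak of ordinary or high rank corresponded to partners low in the other list, the stronger of which stood at the 15.0 and 22.6 percentiles. The strongest partner was the higher ranked on 3R at 16373165 to 16374142. There a SIN3 220HA peak of 4.18-fold (18.3 percentile) met a SIN3 187HA peak of 7.91-fold, by 200 bp only, and another of 4.10-fold. The strongest partner was also the higher ranked on 2L at 18562254 to 18564151. There a SIN3 220HA peak of 5.30-fold (37.6 percentile) met SIN3 187HA peaks of 7.87 and 3.497-fold, with a gap of 107 bp.

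Split domains were found on all 5 main arms, and 0 were found among the 11 SIN3 187HA and 27 SIN3 220HA peaks on chromosome 4. So few peaks cannot tell an absence from the shares of undivided peaks in the whole lists, 2.47% and 3.32%. On X there were 26 of the 121 undivided SIN3 187HA peaks (21.5%, 14.5 to 29.9%), where the arm held 14.8% of the list, and 23 of the 193 undivided SIN3 220HA peaks (11.9%, 7.71 to 17.3%), where it held 16.2%. Both intervals contain the share of the list, so that the excess on X in one direction and the deficit in the other were within counting error. On 3L there were 53 of the 193 undivided SIN3 220HA peaks (27.5%, 21.3 to 34.3%), where the arm held 21.03% of the list. This was the only one of the 10 intervals over the main arms of both lists that did not contain the share of the list.

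At the margin of the rule, few domains rested on a thin overlap. An overlap of at most 50 bp was needed in 3 SIN3 187HA and 2 SIN3 220HA domains. The smallest, of 8 bp, joined the SIN3 187HA peak on 2R at 8644486 to 8645386 (9.89-fold) to the SIN3 220HA peak at 8643054 to 8644493 (13.0-fold). It counted in both directions, since that SIN3 220HA peak also met a SIN3 187HA peak at 8642726 to 8644167 (9.79-fold) and the SIN3 187HA peak met a further SIN3 220HA peak at 8644604 to 8645599 (13.4-fold). In this staggered stretch each isoform had 2 peaks of high enrichment with outer summits at the same base. The next smallest overlaps were 10 bp, for the SIN3 187HA peak on X at 16729876 to 16730783, and 37 bp, for the SIN3 220HA peak on 2R at 2518503 to 2520925. Just outside the rule, the SIN3 187HA peak on 2R at 11024345 to 11025392 (8.09-fold) lay 44 bp short of a second SIN3 220HA peak, and the SIN3 220HA peak on 2R at 13153494 to 13153979 (3.49-fold) lay 39 bp short of a second SIN3 187HA peak.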

How the data were processed

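Formaldehyde-treated chromatin of S2 lines with an HA-tagged SIN3 187 or SIN3 220 construct was fragmented with MNase and sonication and precipitated with anti-HA agarose. Each line gave 2 immunoprecipitates and 2 inputs, 8 samples in 4 groups, assigned from the sample titles.

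Per the submitters' processing notes, CASAVA 1.8.2, Bowtie2, MACS2 2.1.0 and the dm3 build were used. According to the methods of the study, uniquely mapped reads were kept and peaks were called against input with duplicate reads retained and default parameters. The peak names in the deposited lists show that the replicates were joined before calling. The lowest -log10 p-value in the unfiltered lists was just over 3. Besides positions and summits, the unfiltered lists deposited by the authors hold the MACS2 score (10 times the -log10 p-value), a fold enrichment ratio of summit pileup to local background, and -log10 p-values and q-values. The deposited filtered lists give positions alone, of peaks that the authors kept by irreproducible discovery rate and at least 3-fold enrichment. The value of that rate differs between places in the study. GEO attaches the filtered lists to input samples, although their peaks are those of the immunoprecipitates. Filtered starts count from 1, as do all positions given here. Joining the replicates leaves no spread between them, and retained duplicates can add to the pileup. Total reads are not given in these lists, so the depth is unknown.

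Filtered peaks were matched to unfiltered peaks by position. A split domain was a filtered peak sharing at least 1 bp with 2 or more filtered peaks of the other isoform, together with those partners. The rule used the same lists that are described, so no test was made. Summit pileup and background, in reads, were computed back from the deposited fold enrichment and p-value, taking the fold enrichment as pileup plus 1 over background plus 1 and the p-value as a Poisson tail. Pileups came out whole within 0.05 for 9008 of 9011 SIN3 187HA and 8860 of 8862 SIN3 220HA peaks. Shares have 95% exact (Clopper-Pearson) binomial intervals, which cover counting error only. Fold enrichment was compared within a list, and between lists only through percentiles. The domains named, in each direction, were the 5 with the most partners, the 5 of highest fold enrichment, the 3 with the widest gap, the 3 with the narrowest gap and the 2 with the smallest overlap, with ties in the number of partners or the narrowest gap broken by higher fold enrichment. The members, the lists and these rules were chosen with earlier results of these data known. Analyses used Python 3.11.15, numpy 2.4.6, pandas 2.3.3, scipy 1.17.1, networkx 3.6.1 and matplotlib 3.10.9. Overlaps were checked against bedtools 2.31.1, and the code was tested on simulated data. Alternatives were other overlap rules, unfiltered lists, thresholds of 4-fold and 5-fold, equal numbers of peaks, merging of nearby peaks and the 5 main arms alone. The annotation held was of another build, so genes and sequences were not analysed here.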

Additional observations from a re-analysis of the deposited data

How the results depend on the processing

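With unfiltered lists, 355 undivided SIN3 187HA and 622 undivided SIN3 220HA peaks were found. Then SIN3 220HA partners had a weakest-to-strongest ratio of 0.605 and SIN3 187HA partners one of 0.603, the median SIN3 187HA partner gap 159.5 bp and the share of SIN3 220HA summits in the strongest partner 79.3%. The cause was not tested. A threshold of 4-fold in both lists left 70 undivided SIN3 187HA peaks and a SIN3 220HA partner ratio of 0.771. A threshold of 5-fold left 45 and 92 undivided peaks, partner ratios of 0.812 (SIN3 220HA) and 0.795 (SIN3 187HA), median gaps of 151.5 and 205 bp, and a SIN3 220HA summit share of 64.1%. With the SIN3 220HA list reduced to 4903 peaks by -log10 p-value, 77 undivided SIN3 187HA peaks were found, with a SIN3 220HA partner ratio of 0.778. These alternatives take peaks of lower enrichment or higher p-value out of the lists, undivided peaks as well as partners. Which of these losses changed the values was not tested. Merging peaks over gaps of up to 200 bp gave 77 undivided SIN3 187HA peaks and median gaps of 331 bp (SIN3 220HA) and 399 bp (SIN3 187HA). Merging up to 500 bp gave 50 and 109 undivided peaks, median gaps of 702 and 780 bp, and summit shares of 78.0% (SIN3 187HA) and 66.1% (SIN3 220HA). By construction merging removes the narrow gaps. Undivided SIN3 220HA peaks outnumbered undivided SIN3 187HA peaks under every alternative run, and no other value moved past its interval or by over 1.5 times.

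No paired analysis was possible because peaks were called on joined replicates, and for that reason no replicate was left out in turn. Counts of split domains depend on the fold threshold and on merging, and without read totals the depth of the lines was not equalised.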
